A study of Mus musculus with 8 samples.

Results

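The cytosolic ribosomal protein genes were taken from the table of FPKM (fragments counted in a gene, divided by its length and by the number of fragments mapped) by name: symbols beginning Rpl or Rps followed by a number, the stalk genes Rplp0, Rplp1 and Rplp2, and Rpsa, without kinases and numbered pseudogenes. Of 28295 rows, 88 had such a name, and the 84 with a mean of at least 0.5 FPKM are the members described here. All 84 passed the filter on low values, which was the same mean of 0.5 FPKM and left 14400 genes tested. Of the members, 77 are canonical ribosomal protein genes, 31 of the small (40S) and 46 of the large (60S) subunit. A further 3, Rps27l, Rpl7l1 and Rpl22l1, are protein-coding paralogs, and 4, Rps4l, Rpl6l, Rps3a2 and Rps3a3, are annotated as pseudogenes. The names below the level were Rpl10l, Rpl32l, Rpl39l and Rpl3l. The members lie on 19 chromosomes, with 4 of them on X.

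The cytosolic ribosome makes nearly all proteins of a cell from a small subunit that reads the mRNA and a large subunit that joins the amino acids. Each subunit is built in the nucleolus from ribosomal RNA and a fixed set of proteins, so the genes of that set are usually expressed in concert. Most of their mRNAs begin with a run of pyrimidines, the 5′ terminal oligopyrimidine (TOP) motif, through which mTORC1, the nutrient-sensing kinase complex, controls their translation. In fat, insulin and feeding act on translation through this route.

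The libraries were poly(A) RNA from white adipose tissue of the epididymal depot of male mice, 4 in each of 2 groups. Every mouse had loxP-flanked Cul3 alleles (Cul3-flox/flox), ate a Western diet for 8 weeks and was fasted for 6 h before collection, and no age is given. The WT group had no Cre, and the Cul3AKO group also carried AdipoQ-Cre, a recombinase under the promoter of the adiponectin gene, an adipocyte promoter. The product of Cul3, cullin 3, holds together a class of ubiquitin ligases. Cells of the depot other than adipocytes keep their Cul3, and since only the Cul3AKO group carried the transgene, Cre and the loss of Cul3 cannot be told apart. The labels tie no library to an animal, so p-values measure the spread between these libraries, which may be technical.

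Cul3 itself (chr1:80264923-80340480, build mm10) was not lower in the libraries labelled Cul3AKO. Libraries WT1 to WT4 had 11.4, 9.66, 12.4 and 11.5 FPKM, and Cul3AKO1 to Cul3AKO4 had 10.6, 11.2, 13.2 and 13.0 FPKM. The groups overlapped, with a log2 fold change of 0.09 ± 0.10 (SE; limma adjusted p = 0.52) and p = 0.429 in the exact two-sided permutation test. When the libraries were scaled to the same sum it was called higher (0.36, adjusted p = 0.0488). Every direction given for the Cul3AKO group therefore rests on the labels, and a single value for the gene does not show its deleted exons.

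The FPKM denominators recovered from the table were 22.9 to 25.5 M reads in WT and 24.2 to 29.1 M reads in Cul3AKO (M, 1000000). Of these reads, 74.1% to 78.7% lay in listed genes in WT libraries and 62.6% to 66.1% in Cul3AKO libraries, and what made up the rest is not analysed here. The defining adipocyte markers were all present. Cul3AKO1 stood apart in its short mRNAs. The summed level of 4 epididymis genes was 203.1 FPKM in Cul3AKO1, all of it Crisp1, 50.1 FPKM in WT2, mostly Lcn5 (42.0 FPKM), and at most 8.02 FPKM elsewhere. WT1 and WT2 stood apart in the summed level of 6 liver genes, 128 and 465 FPKM against 18.3 and 35.3 in the other WT libraries.

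Of the 77 canonical ribosomal protein genes 18 were called higher in Cul3AKO fat, 0 lower and 59 not called, while the 3 coding paralogs were lower. In the fit of log2(FPKM + 0.5) with limma and Benjamini-Hochberg adjustment over all 14400 genes, 19 of the 84 members were called higher at an adjusted p under 0.05 (22.6%), against 11.7% of all genes tested. Called lower were 3 members (3.57%), against 18.6% of all genes tested. The median log2 fold change of the members was 0.20, a 1.15-fold difference, beside -0.02 over all genes tested. Over the canonical genes alone the median was 0.22. Without Cul3AKO1 it was 0.13 with 13 called higher, and without both WT1 and WT2 only 2 were. At an unadjusted p under 0.05 the limma counts of canonical genes were 26 higher and 0 lower, and voom on the recovered reads called 19 higher and 0 lower. Of the canonical estimates, 65 lay above 0.

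The called rises ran from 0.29 to 0.67 on the log2 scale, 1.23-fold to 1.59-fold, and in all 19 every Cul3AKO library lay above every WT library. In all, the groups did not overlap for 23 members that were higher and 2 that were lower, beside 12.1% and 19.1% of all genes tested. Of the 19 calls, 14 were kept without Cul3AKO1, and 11 in every fit that left out 1 library, among them Rps6, Rps12, Rps14, Rps15a, Rpl3, Rpl6l, Rpl12, Rpl26 and Rpl39. The count was 12 without WT1 and also 12 without WT2. Without both, with 2 WT libraries left, only Rps6 and Rps3a1 were called higher and Rps27l and Rpl7l1 lower, while calls over all genes fell to 722 higher and 1036 lower. The count grew under other scalings. With libraries scaled to the same sum, 48 members were higher and 2 lower at a median of 0.47, while the median of all genes moved from -0.02 to 0.21 and the split of all calls from 1689 higher and 2683 lower to 4217 and 1180. The members' median thus stood 0.20 against -0.02 by FPKM and 0.47 against 0.21 after scaling.

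**Figure D1:**
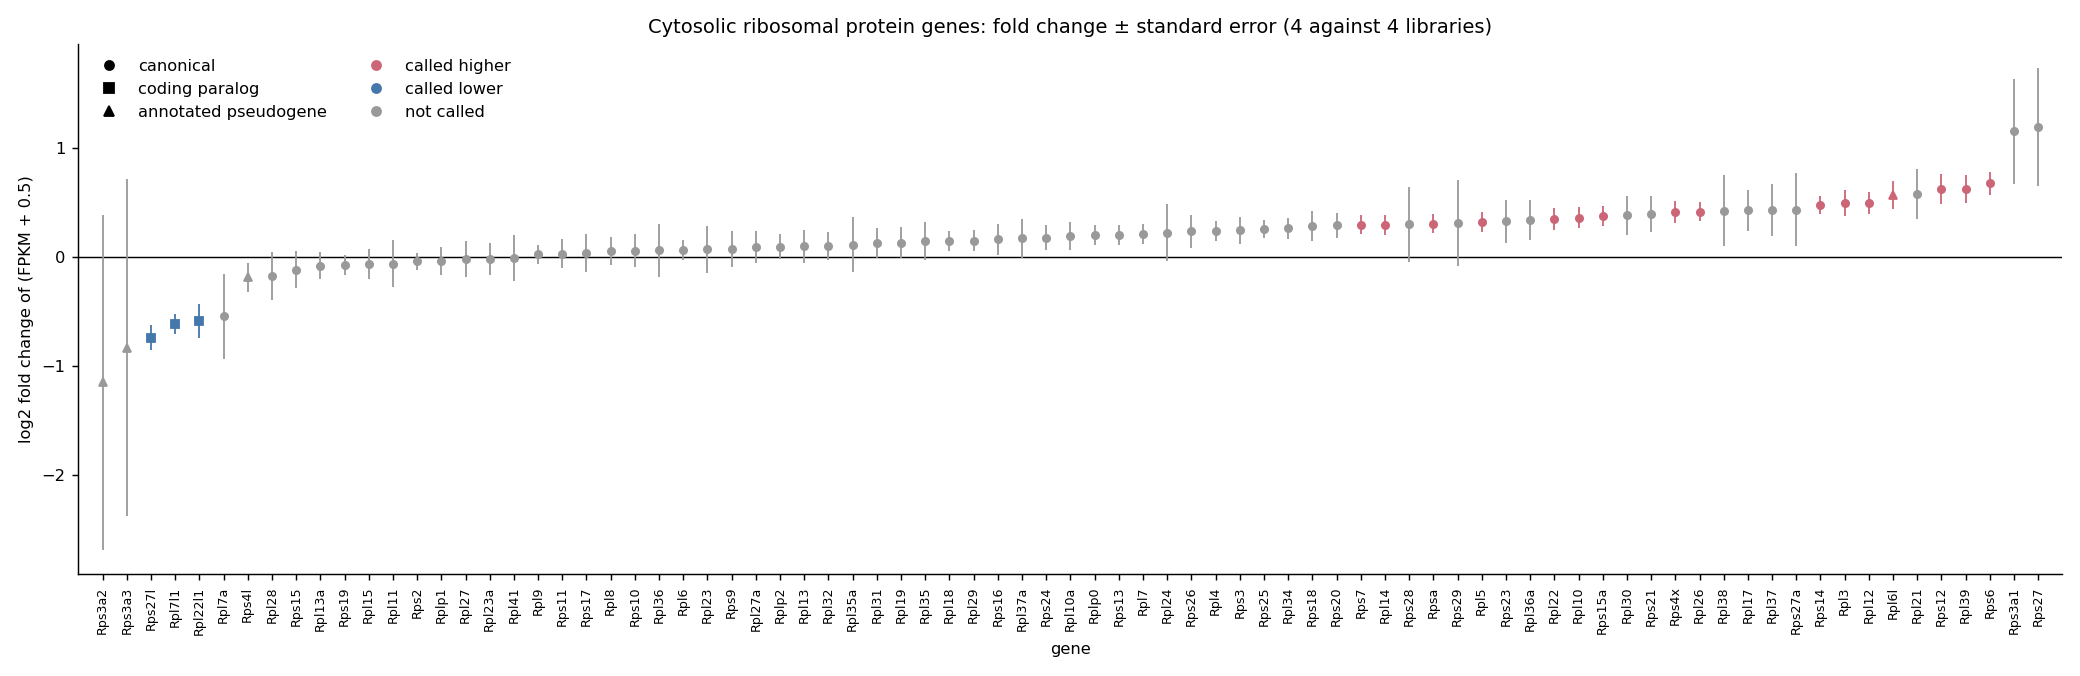
Log2 fold change of (FPKM + 0.5), Cul3AKO against WT, for 81 of the 84 members in order, with bars of 1 standard error (4 libraries a group). Circles are canonical genes, squares coding paralogs and triangles annotated pseudogenes, and colour gives the call. The red points lie at 0.29 to 0.67, the 3 blue squares at -0.59 to -0.74, and the widest bars belong to Rps3a1, Rps3a2, Rps3a3 and Rps27.

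Markers of some cell types in the depot differed between the groups as well. The summed level of 7 adipocyte markers was 3782 to 5082 FPKM in WT and 1511 to 2074 FPKM in Cul3AKO, and 7 of 7 were called lower. The sum of 8 macrophage markers was 609, 518, 512 and 1445 FPKM in WT and 1646, 1563, 1174 and 696 FPKM in Cul3AKO, with 3 of 8 called higher. That count was 1 without WT1, WT2, WT3, Cul3AKO1, Cul3AKO2 or Cul3AKO3, 6 without Cul3AKO4 and 8 without WT4. The sum of 7 endothelial markers was 169 to 240 FPKM in WT and 115 to 137 FPKM in Cul3AKO, with 6 of 7 called lower. No marker of these lists was at 0. Fibroblast and progenitor markers summed to 385, 390, 435 and 729 FPKM in WT and 368 to 414 FPKM in Cul3AKO. Of these 7, 1 was called higher (Ly6a) and 2 lower (Col1a1 and Col3a1), the lower calls being 0 to 2 with 1 library left out. Smooth muscle and pericyte markers summed to 138 to 228 FPKM in WT and 133 to 158 FPKM in Cul3AKO, with 1 of 5 called higher (Myh11) and 0 lower. T and B cell markers summed to at most 11.6 FPKM in any library, and of the 2 tested 1 was called higher (Cd79b). In bulk tissue fewer cells of a type and less RNA per cell cannot be told apart, and the part of the cell mix in the ribosomal protein values was not tested.

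The stretches around the annotated starts of the transcripts are shown for the called members with the largest changes that RefSeq's promoter table holds, since this is where a TOP motif would lie. They run from 25 bases before to 20 bases after the first base, 5′ to 3′ on the gene's strand, from RefSeq on GRCm38.p6. Capitals mark the longest unbroken run of C and T that overlaps the 10 bases on either side of the start. The windows are chr4:86857347-86857392 (minus strand) for Rps6, chrX:37085202-37085247 (minus) for Rpl39, chr10:23787189-23787234 (minus) for Rps12 and chr2:32961687-32961732 (plus) for Rpl12, which rose. Those of the paralogs that fell are chr9:66946061-66946106 (plus) for Rps27l, chr17:46782636-46782681 (minus) for Rpl7l1 and chr3:28805483-28805528 (plus) for Rpl22l1.
Rps6: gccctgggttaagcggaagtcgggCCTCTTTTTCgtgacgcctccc
Rpl39: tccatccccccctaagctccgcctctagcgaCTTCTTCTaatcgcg
Rps12: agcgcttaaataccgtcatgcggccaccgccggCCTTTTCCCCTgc
Rpl12: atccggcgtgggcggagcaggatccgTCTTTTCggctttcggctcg
Rps27l: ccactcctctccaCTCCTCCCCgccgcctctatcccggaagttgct
Rpl7l1: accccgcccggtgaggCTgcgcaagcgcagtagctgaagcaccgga
Rpl22l1: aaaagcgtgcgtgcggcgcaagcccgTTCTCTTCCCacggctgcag

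Of the 84 members, 60 had a promoter in that table, 57 of them canonical. Each entered with only the start nearest that of its main annotated mRNA. The background was every promoter listed there, whatever the level of its gene in this tissue, so these sets are unlike. A pyrimidine run of at least 8 bases near the start was present in 25 of the 57 canonical genes (43.9%) and in 14.0% of all 32851 promoters. The run was present in 5 of the 13 canonical genes called higher (38.5%) and in 20 of the 44 not called (45.5%). Such a run need not begin at the first base, and shorter runs were not counted, so these shares are no count of TOP mRNAs. In the windows above, Rps6, Rps12 and Rpl39 have such a run, and so do Rps27l and Rpl22l1, whose mRNAs were lower. Relative to the first base, the runs begin at -1 in Rps6, 8 in Rps12, 6 in Rpl39 and 1 in Rpl22l1. That of Rps27l begins at -12, is 9 bases long and ends before the first base, so it lies outside the annotated mRNA. The core of the ETS factor site, CCGGAAG, searched on both strands from 250 bases before to 50 after the start, was in 38.6% of canonical members and 8.86% of all promoters. It was in 38.5% of canonical genes called higher and 38.6% of those not called. The GC box, GGGCGG, was in 59.6% of canonical members and 35.7% of all promoters, the YY1 core, AAGATGG, in 14.0% and 6.34%, and the TATA box, TATAAA, in 8.77% and 13.6%. Hits of different motifs may overlap, and a match is a description of the letters only.

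Among the 40S genes, 9 of 31 canonical members were called higher (29.0%, beside 11.7% of all genes tested), at a median of 0.29. Without Cul3AKO1 the median was 0.17 with 7 called, and 6 were called without WT1, WT2, WT3 or Cul3AKO3. In those last fits the calls over all genes fell as well, from 1689 higher to between 1089 and 1381. Rps6 (chr4:86854660-86857412), whose product is the substrate of S6 kinase, the kinase downstream of mTORC1, measured 109, 102, 116 and 126 FPKM in WT and 184, 162, 186 and 193 FPKM in Cul3AKO. All Cul3AKO libraries lay above all WT libraries by a wide gap, and the rise was 0.67 ± 0.10 (limma adjusted p = 0.00176), from 114 ± 10.3 to 181 ± 13.5 FPKM (SD, n = 4 each). Rps6 was the called member with the largest rise. Rps12 (chr10:23785183-23787275), a protein at the head of the small subunit, measured 37.8, 29.7, 43.3 and 45.2 FPKM against 61.8, 52.5, 59.5 and 64.8 FPKM. Its groups were separate, with WT2 lowest, and it rose by 0.62 ± 0.14 (adjusted p = 0.0111). Its processed copy Rps12-ps3, with 100% identity, holds part of the same reads, and with copies pooled Rps12 was still called.

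Rps4x, the X-linked form of eS4, measured 143, 138, 154 and 175 FPKM in WT and 206, 201, 211 and 191 FPKM in Cul3AKO. Every Cul3AKO library lay above every WT library, and Rps4x rose by 0.41 ± 0.10 (limma adjusted p = 0.0157), and without WT1 its adjusted p was 0.0525. Rpsa, which also serves as a laminin receptor, measured 116, 105, 113 and 124 FPKM against 143, 145, 138 and 139 FPKM. The Rpsa groups were separate and the rise was 0.30 ± 0.08 (adjusted p = 0.0251), but the call was lost in 6 of the 8 fits that left out 1 library, WT4 and Cul3AKO4 being the exceptions, at an adjusted p of up to 0.0729. Other 40S genes called included Rps7, Rps14 and Rps15a, and Rps14 rose by 0.48 ± 0.08, while Rps7 lost its call without any 1 library except WT4.

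Among the 60S genes, 9 of 46 canonical members were called higher (19.6%, beside 11.7% of all genes tested), at a median of 0.15. Without Cul3AKO1 the median was 0.04 with 6 called, and 5 were called without WT1 or WT2. Over all genes 1089 were higher without WT1 and 1292 without WT2, against 1689 with all libraries. Rpl39 (chrX:37082520-37085402), a small protein in the wall of the exit tunnel, measured 43.3, 37.1, 44.0 and 51.2 FPKM in WT and 79.4, 57.2, 69.3 and 65.9 FPKM in Cul3AKO. Cul3AKO1 was highest, the lowest Cul3AKO library still lay above the highest WT library, and the rise was 0.62 ± 0.13 (limma adjusted p = 0.00797). Without Cul3AKO1 it was 0.55 (adjusted p = 0.0178). Rpl12 (chr2:32961559-32965345), which sits at the base of the stalk, measured 33.4, 30.3, 31.4 and 40.7 FPKM against 46.1, 49.7, 49.4 and 46.2 FPKM. Rpl12 groups were separate, WT4 being the highest WT library, and it rose by 0.50 ± 0.10 (adjusted p = 0.00785).

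Other 60S genes called included Rpl3, Rpl5, Rpl10, Rpl14, Rpl22 and Rpl26. Rpl3 and Rpl10, whose products reach towards the peptidyl transferase centre, rose by 0.49 ± 0.12 and 0.36 ± 0.10. Rpl10 lost its call without WT1, WT2, WT3 or Cul3AKO3 (limma adjusted p up to 0.0711), and Rpl14 without any 1 library except WT4 (up to 0.0946). Rpl8, the third gene of that group, was at 0.05 and not called. Rpl5, which with Rpl11 binds 5S rRNA and can hold MDM2, the ligase of p53, measured 48.1, 44.5, 48.2 and 55.1 FPKM against 65.6, 58.4, 62.4 and 58.1 FPKM. Its groups were separate, and its rise of 0.32 ± 0.09 (limma adjusted p = 0.0274) lost the call without WT1, WT2, WT3, Cul3AKO1, Cul3AKO2 or Cul3AKO3, with an adjusted p of up to 0.0743. Its partner Rpl11 measured 63.2, 58.9, 44.6 and 52.8 FPKM against 80.2, 53.1, 41.5 and 41.7 FPKM. Rpl11 was highest in Cul3AKO1 and overlapped between the groups elsewhere, at -0.06 (adjusted p = 0.85).

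**Figure D2:**
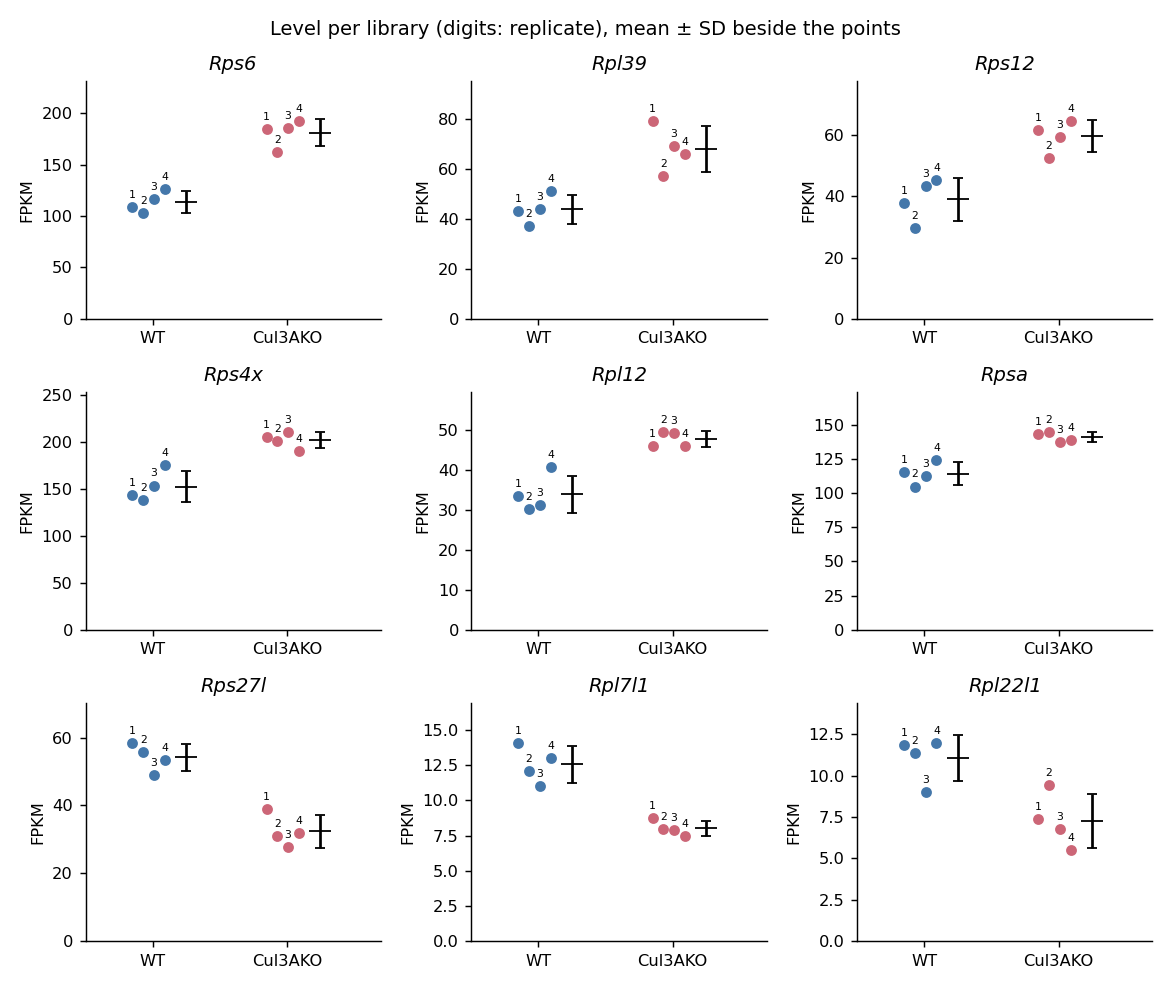
FPKM of 9 members in each library, with replicate numbers beside the points and the mean ± SD of 4 libraries as bars. In the 6 genes that rose, Rps6, Rpl39, Rps12, Rps4x, Rpl12 and Rpsa, every red Cul3AKO point lies above every blue WT point, and in the paralogs Rps27l and Rpl7l1 every one lies below. Rpl22l1 overlaps at WT3, 9.04 FPKM, and Cul3AKO2, 9.44 FPKM.

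The 3 protein-coding paralogs all fell. Rps27l (chr9:66946086-66949516), a close paralog of Rps27 known as a p53 target, measured 58.4, 55.8, 48.9 and 53.4 FPKM in WT and 39.0, 30.8, 27.6 and 31.8 FPKM in Cul3AKO. The highest Cul3AKO library lay below the lowest WT library, and the change was -0.74 ± 0.11 (limma adjusted p = 0.002), from 54.1 ± 4.05 to 32.3 ± 4.79 FPKM (SD, n = 4 each). Rpl7l1 (chr17:46773907-46782672), related to Rpl7 and found in precursors of the large subunit, measured 14.1, 12.1, 11.1 and 13.0 FPKM against 8.72, 7.96, 7.89 and 7.49 FPKM. The Rpl7l1 groups were separate, at -0.61 ± 0.09 (adjusted p = 0.00145). Both calls held in every fit that left out 1 library and without WT1 and WT2.

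Rpl22l1 (chr3:28805436-28807424), which can take the place of Rpl22 in the ribosome, measured 11.9, 11.4, 9.04 and 11.98 FPKM in WT and 7.38, 9.44, 6.75 and 5.50 FPKM in Cul3AKO. WT3 lay below Cul3AKO2, so the groups overlapped, and the change was -0.59 ± 0.16 (limma adjusted p = 0.0216). The call was lost without WT1, WT2 or Cul3AKO3 (adjusted p up to 0.0619) and with libraries scaled to the same sum (-0.33, adjusted p = 0.138) or to the reads in listed genes (-0.35, adjusted p = 0.113). Under both of these scalings the estimates of all 3 paralogs stayed below 0.

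Each paralog was also set against its partner within the same library, which no scaling of a library alters apart from the pseudocount. The log2 ratio of (FPKM + 0.5) of Rpl7l1 to Rpl7 was -2.70, -2.78, -2.98 and -2.94 in WT and -3.66, -3.62, -3.68 and -3.73 in Cul3AKO. The groups were separate and the ratio changed by -0.83 (p = 0.0286 by exact permutation, two-sided, which is the lowest value possible with 4 libraries a group, and 0.0381 adjusted over 4 pairs). As a share of the pair's FPKM, Rpl7l1 went from 11.9% ± 0.983 to 6.91% ± 0.217 (SD, n = 4 each). Rpl7 itself measured 94.1, 85.9, 90.4 and 103 FPKM against 116, 103, 107 and 105 FPKM and was not called (0.21, limma adjusted p = 0.102), although its groups did not overlap either.

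The log2 ratio of Rpl22l1 to Rpl22 was -1.02, -0.99, -1.20 and -1.08 in WT and -2.22, -1.52, -1.98 and -2.33 in Cul3AKO. Although Rpl22l1 alone overlapped, the ratio did not, and it changed by -0.94 (exact permutation p = 0.0286, adjusted 0.0381). Its share of the pair went from 31.7% ± 1.49 to 19.3% ± 4.26. Rpl22 measured 24.6, 23.2, 21.5 and 25.8 FPKM against 36.3, 27.9, 28.1 and 29.6 FPKM and rose by 0.35 ± 0.10 (limma adjusted p = 0.0352), a call lost in 6 of the 8 fits that left out 1 library, all but those without WT4 and Cul3AKO2, at an adjusted p of up to 0.0848. With 1 library left out, the exact test of 3 against 4 gave adjusted p values of 0.0571 to 0.0762 for this pair and for that of Rpl7l1. No p smaller than 0.0571 is possible in that test, so these values do not measure a weaker ratio. The ratio changes in these settings were -1.10 to -0.83 for Rpl22l1 and -0.87 to -0.78 for Rpl7l1.

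Rps4l (chr6:148354656-148355598), annotated as a transcribed processed pseudogene related to Rps4x, measured 21.1, 24.97, 27.4 and 24.9 FPKM against 24.3, 23.3, 22.5 and 16.7 FPKM and was not called (-0.19 ± 0.13, limma adjusted p = 0.311). Its ratio to Rps4x changed by -0.60 with separate groups (exact permutation p = 0.0286, adjusted 0.0381), a difference to which the rise of Rps4x contributes by construction. The ratio of Rps27l to Rps27 changed by -1.93 with overlap (exact permutation p = 0.0571, adjusted 0.0571). With the reads of near-identical copies added to Rps27, the ratio was -0.15, -0.03, -0.62 and -0.53 in WT and -1.88, -1.73, -2.13 and -1.90 in Cul3AKO. The groups were then separate, with a change of -1.58 (exact permutation p = 0.0286, adjusted 0.0286). Pooled in this way, the other pairs changed by -0.83, -0.94 and -0.60, each at an exact permutation p of 0.0286.

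**Figure D3:**
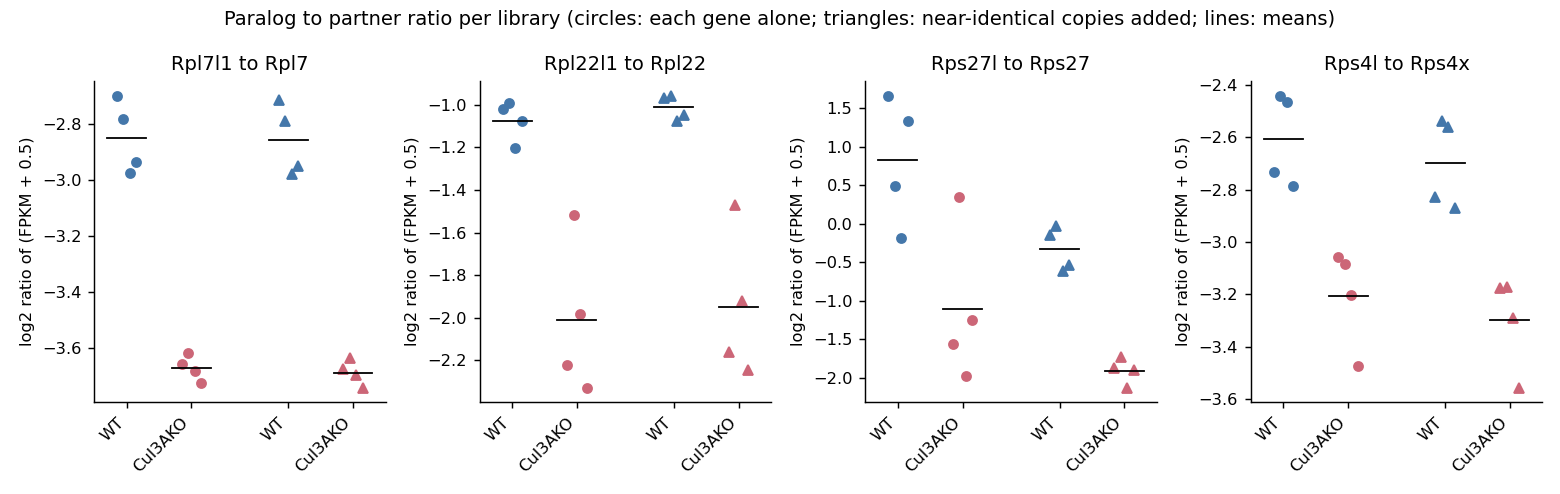
Log2 ratio of (FPKM + 0.5) of a paralog to its partner in each library, for 4 pairs, with circles for the genes alone, triangles for values with near-identical copies added, and lines at the group means. Blue is WT and red Cul3AKO. All pairs are separate except Rps27l to Rps27 before pooling, which spans 1.66 to -1.98.

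Several of the most abundant members were not called. By FPKM the highest means were those of Rplp1, Rplp0, Rps15, Rpl36 and Rps3a1, the last of which shares its reads with copies. Rplp1 (chr9:61913284-61914542), an acidic protein of the stalk that recruits translation factors, measured 659.9, 643, 561 and 668 FPKM in WT and 694, 664, 617 and 507 FPKM in Cul3AKO. The groups overlapped fully, at -0.04 (limma adjusted p = 0.857, 95% interval -0.33 to 0.26). Rplp0, the scaffold of the stalk and a common reference gene in PCR, measured 252, 242, 239.7 and 268 FPKM against 312, 277, 269 and 293 FPKM. Its groups did not overlap, yet it missed the threshold at 0.20 ± 0.09 (adjusted p = 0.138). It was called higher with libraries scaled to the same sum, by quantile normalization and with length trends removed.

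Rps15, beside the decoding site, measured 237, 249.5, 191 and 230.5 FPKM against 278, 222, 182 and 167 FPKM, with overlap and -0.12 (limma adjusted p = 0.628). Rpl36 measured 208, 228, 148 and 198 FPKM against 332, 193, 155 and 165 FPKM, and only Cul3AKO1 lay above the WT range (0.06, adjusted p = 0.875). Rps19, the gene most often mutated in Diamond-Blackfan anaemia, an inherited failure of red cell production, measured 33.0, 37.9, 29.1 and 30.4 FPKM against 32.2, 31.5, 30.4 and 29.3 FPKM. All Cul3AKO values lay inside the WT range, at -0.07 (adjusted p = 0.589, 95% interval -0.29 to 0.14).

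By functional site, 2 of 8 exit tunnel genes, 2 of 3 genes near the peptidyl transferase centre, 1 of 7 genes of the mRNA path and 1 of 2 5S rRNA-binding genes were called higher, and 0 were lower in each, beside 11.7% and 18.6% of all genes tested. The medians were 0.19, 0.36, 0.24 and 0.13 in that order, against 0.22 for all canonical genes. Without Cul3AKO1 they were 0.11, 0.35, 0.10 and 0.01, against 0.13. Of the genes near the peptidyl transferase centre 1 was called without WT1, WT2, WT3 or Cul3AKO3, and of the 5S rRNA-binding genes 1 only without WT4 or Cul3AKO4 and 0 without any other library. Of the 3 stalk genes 0 were called (median 0.10, and 0.03 without WT3 or Cul3AKO1), with 0 at an unadjusted p under 0.05 by limma and 0 by voom. Of 4 proteins that are ubiquitylated when ribosomes collide, 0 were called (median 0.15, and 0.09 without WT3 or Cul3AKO1), with 1 higher at an unadjusted p under 0.05 by limma and 0 by voom. Of the 18 orthologs of Diamond-Blackfan anaemia genes on the list, 3 were called higher (16.7%) and 0 lower (median 0.14), by voom also 3 and 0. Only 1 was called without WT1, WT2, WT3, Cul3AKO1 or Cul3AKO3, and without Cul3AKO1 the median was -0.02. Of ribosomal genes whose names fall outside the rule, Fau, which encodes eS30 fused to a ubiquitin-like protein, measured 156, 158, 133 and 162 FPKM against 226, 182, 182 and 199.7 FPKM. The Fau groups were separate and it rose by 0.37 ± 0.11 (limma adjusted p = 0.0331). The call was lost in 6 of the 8 fits that left out 1 library, all but those without WT4 and Cul3AKO3 (adjusted p up to 0.0789). Rack1 was not called (0.26, adjusted p = 0.0763).

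FPKM divides by the length of all exons joined, which for several members is far longer than the mRNA: 6256 against 1613 bases in Rps24 and 4685 against 633 bases in Rps19. Rescaled to the principal mRNA, the highest mean levels per length were 627 FPKM for Rplp1, 601 for Rps14, 467 for Rpl41, 419 for Rpl10 and 403 for Rplp2. Of these, Rps14 and Rpl10 were called higher, and Rplp1, Rpl41 and Rplp2 were not called. The median over all members in the table's own FPKM was 66.0, against 3.95 over all genes tested. Of the names below the level, Rpl3l, a paralog of Rpl3 that is typical of striated muscle, was at 0.0955, 0.102, 0 and 0.149 FPKM in WT and 1.52, 0.422, 0.226 and 0.0246 FPKM in Cul3AKO.

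Many ribosomal protein genes have near-identical processed copies in the mouse genome, and reads can be counted to either. A search of the table's transcripts found 430 rows that match a member's mRNA at 90% identity or more over at least 50% of its length, from 65 members, and 417 of them are annotated as pseudogenes. Of the 430, 3 are members themselves, and their reads were counted with those of the members. The other copies held 7.56% to 9.06% of the reads of members and copies together, but for some genes copies held far more. Rps3a1 (chr3:86137940-86142702) measured 277, 164, 60.2 and 59.7 FPKM in WT and 208, 325, 212 and 281 FPKM in Cul3AKO. Its copy Rps3a2 (chr14:88123017-88123808), with 99.5% identity, measured 1.63, 62.1, 128 and 180.4 FPKM against 70.7, 6.18, 69.1 and 3.42 FPKM. Rps3a3 (chr13:108670603-108671397) ran alongside it, at 1.38, 45.6, 105 and 126 FPKM against 72.4, 4.11, 81.9 and 3.66 FPKM. The copies were highest in WT3 and WT4, where Rps3a1 was lowest.

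Added up, the Rps3a1 family came to 273.7, 245.8, 244.7 and 301.8 reads per 1000000 of the denominator in WT and 317.5, 327.2, 327.6 and 281.9 in Cul3AKO. The family varied 1.34-fold over the 8 libraries and the gene alone 5.45-fold, the copies holding from 1.23% to 80.7% of the family. Rps3a1 alone was at 1.15 ± 0.48 (limma adjusted p = 0.102), which is thus a value shared with its copies. It was called higher by quantile normalization, with libraries scaled to the same sum (1.43, adjusted p = 0.0387) or to the reads in listed genes (1.40, adjusted p = 0.0446), when WT1 was left out (1.58, adjusted p = 0.0232) and when WT1 and WT2 both were (2.06, adjusted p = 0.0035), WT1 being the library in which the copies were lowest.

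Rps27 (chr3:90212522-90213651) measured 18.1, 39.6, 55.7 and 20.98 FPKM in WT and 116, 24.2, 111 and 76.1 FPKM in Cul3AKO, with overlap at Cul3AKO2 (1.19 ± 0.54, limma adjusted p = 0.127). It was called without Cul3AKO2 (1.69, adjusted p = 0.0211). Its copy Rps27rt (chr9:114982366-114982739), annotated as protein coding with 100% identity, took most of the remaining reads, the copies' share running from 9.70% to 76.7%. The family together came to 67.8, 59.5, 78.5 and 81.0 reads per 1000000 in WT and 151.7, 108.2, 127.7 and 126.2 in Cul3AKO. These groups were separate, and pooled Rps27 was called higher (0.84, adjusted p = 0.00252).

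**Figure D4:**
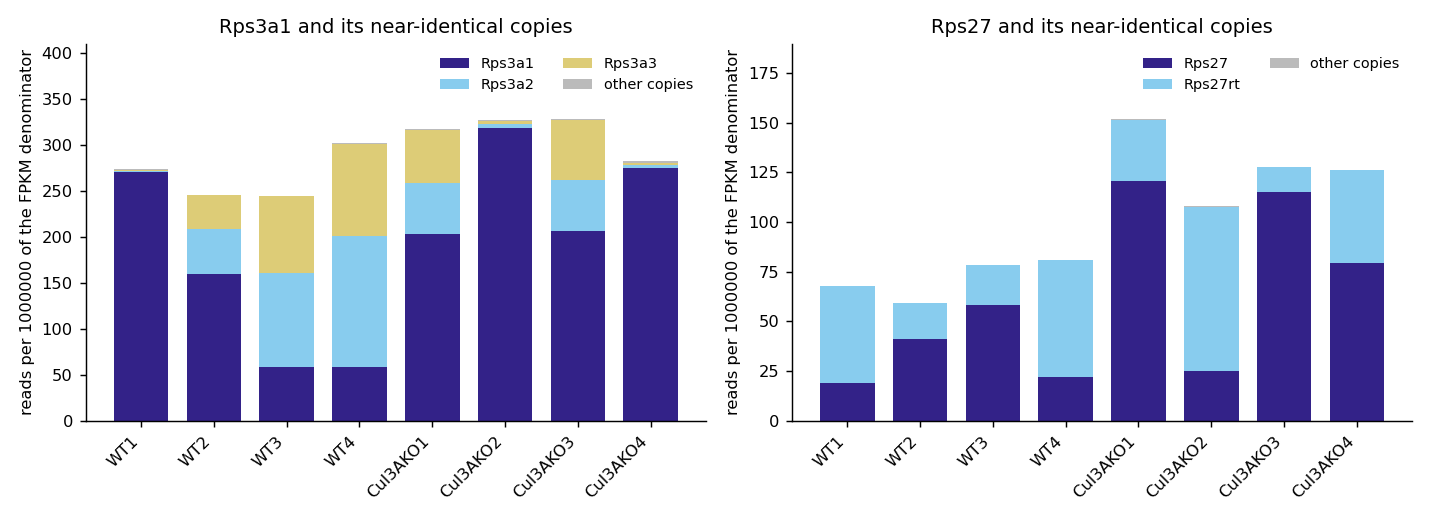
Reads per 1000000 of the FPKM denominator for Rps3a1 and Rps27 with their near-identical copies, stacked by gene for each library. The stack of the Rps3a1 family stays between 244.7 and 327.6 while the part of Rps3a1 ranges from 58.4 to 317.9, and the Rps27 stack is 59.5 to 81.0 in WT and 108.2 to 151.7 in Cul3AKO.

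The copies named as ribosomal protein or predicted genes, 427 of the 430, were then summed into their parents. In that fit 21 of 81 members were called higher and 3 lower, beside 11.9% and 18.9% of all rows tested. Of the 19 higher calls 17 were kept. Rps27, Rpl17 (0.49, adjusted p = 0.0119), Rpl30 (0.36, adjusted p = 0.0423) and Rps25 (0.26, adjusted p = 0.048) were added, and Rpl14 and Rpl6l dropped out. Rpl6l (chr10:111125851-111126721), annotated as a processed pseudogene related to Rpl6, had measured 14.0, 14.8, 14.8 and 14.6 FPKM in WT and 28.9, 18.6, 21.0 and 20.1 FPKM in Cul3AKO. It had risen by 0.57 ± 0.13 (adjusted p = 0.011) with separate groups, and in the pooled fit it is no row of its own. Rps10 lay at 0.577 to 1.001 FPKM over the libraries while its copy Rps10-ps2 lay at 72.0 to 106 FPKM and held nearly all of the family, copies making up 95.2% to 97.0%. The low row of Rps10 is therefore not the level of its mRNA family.

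Library Cul3AKO1 was the highest of the 8 for 55 of the 77 canonical genes, and Cul3AKO3 for 10. WT3 was the lowest for 32 and WT2 for 18. The median distance of the canonical genes from their WT mean was 0.02, -0.01, -0.14 and 0.12 on the log2 scale in WT1 to WT4 and 0.45, 0.14, 0.09 and 0.10 in Cul3AKO1 to Cul3AKO4. The excess was largest in the shortest mRNAs. Rps29 measured 223 FPKM in Cul3AKO1 and 54.0 to 86.1 FPKM in the other libraries, the largest gap of any canonical member (1.76 on the log2 scale from the mean of the other Cul3AKO libraries). Rpl38 measured 177 FPKM against 54.0 to 70.3 FPKM elsewhere, and neither gene was called.

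By length of the principal mRNA, Cul3AKO1 exceeded the other Cul3AKO libraries by a median of 0.67 in the 17 canonical genes under 500 bases, 0.32 in the 43 of 500 bases up to 1000 and 0.14 in the 17 of 1000 bases or more. All tested genes showed 0.40, 0.14 and -0.00 in the same classes. Leaving Cul3AKO1 out took the canonical median fold change from 0.26 to 0.03 under 500 bases, from 0.20 to 0.13 in the middle class and from 0.24 to 0.18 above. The median of all members went from 0.20 to 0.10, while that of all genes tested went from -0.02 to -0.03. Without that library 14 members were called higher and 3 lower, and the part of RNA quality or size selection in its profile was not tested.

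**Figure D5:**
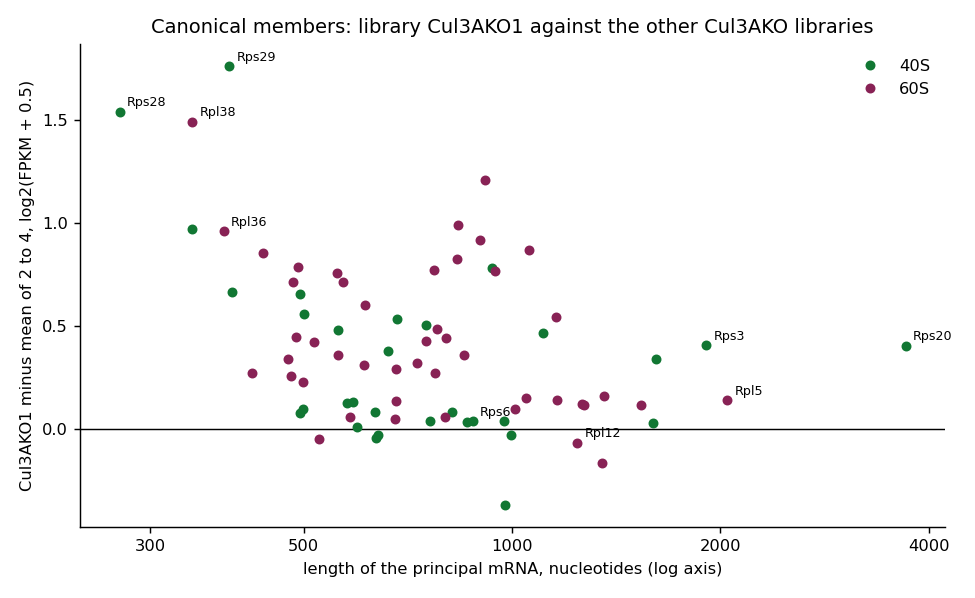
For each canonical member, the length of its principal mRNA in nucleotides (log axis) against the level in Cul3AKO1 minus the mean of Cul3AKO2 to Cul3AKO4, as log2(FPKM + 0.5), with 40S genes in green and 60S genes in purple. Points under 500 nucleotides have a median of 0.67 and those of 1000 or more a median of 0.14, and Rps29 is highest at 1.76.

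Summed over the members, the FPKM came to 6769, 6588, 6111 and 7078 in WT and 9123, 7354, 7179 and 6836 in Cul3AKO. Cul3AKO4 lay inside the WT range. As a share of all FPKM in the table the members made up 2.95%, 2.81%, 2.77% and 3.34% in WT and 4.73%, 4.03%, 4.10% and 3.59% in Cul3AKO. By share the groups were separate, with means of 2.97% ± 0.262 and 4.11% ± 0.470 (SD, n = 4 each). The sum of all FPKM was itself lower in Cul3AKO, at 175006 to 192807 against 211717 to 234141. Of the recovered reads in listed genes, members held 1.30% to 1.56% in WT and 1.76% to 2.28% in Cul3AKO.

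The subunits did not contribute equally. The ratio of summed 60S to summed 40S FPKM was 1.52, 1.59, 1.58 and 1.60 in WT and 1.45, 1.39, 1.39 and 1.35 in Cul3AKO, with separate groups. With copies pooled it was 1.54, 1.59, 1.47 and 1.48 in WT and 1.44, 1.39, 1.37 and 1.37 in Cul3AKO, again separate. These ratios are given as a description with no test.

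When every library was shifted so that the members' mean was equal, 1 member, Rps6, remained above the others (0.50, limma adjusted p = 0.0465), beside 4.53% of all genes tested called higher. The next by adjusted p were Rpl39 (0.45, adjusted p = 0.0508), Rpl6l (0.40, adjusted p = 0.0565) and Rps12 (0.45, adjusted p = 0.0878). The call of Rps6 was lost without WT1, WT2, WT3, Cul3AKO3 or Cul3AKO4, each of which left 0 members higher, while 7 were called without Cul3AKO1. Called lower relative to the members were the 3 paralogs, beside 19.4% of all genes tested: Rps27l at -0.92 (adjusted p = 0.0006), Rpl7l1 at -0.79 (adjusted p = 0.0017) and Rpl22l1 at -0.76 (adjusted p = 0.006).

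In the lists of genes around the ribosome, counts are of genes tested, to be read beside the 11.7% of all genes tested that were called higher and the 18.6% called lower. The medians of lists shift with scaling as that of all genes does, from -0.02 to 0.21 with libraries scaled to the same sum. Of 19 other mRNAs with a TOP motif, 4 were called higher (21.1%) and 0 lower (median 0.19), and voom also called 4 and 0. The calls were 2 higher and 1 lower without Cul3AKO1, 1 higher without WT1, 2 without WT2, WT3 or Cul3AKO2, 7 without WT4 and 0 without both WT1 and WT2. They were Fau, Eif3f (0.31), Eif4b (0.36) and Eef2, the elongation factor that moves the ribosome along the mRNA. Eef2 measured 329, 333, 336 and 359 FPKM in WT and 426, 422, 404 and 389 FPKM in Cul3AKO, with separate groups (0.27 ± 0.09, adjusted p = 0.0459), and lost its call in 6 of the 8 fits that left out 1 library, all but those without WT4 and Cul3AKO4, at an adjusted p of up to 0.121. Of 7 snoRNA host genes, many of whose spliced RNAs also begin with pyrimidines, 3 were called higher and 0 lower (median 0.30): Snhg1 (0.53), Snhg5 (0.62) and Snhg12 (0.36). Voom called 2 of the 7, as did every fit that left out 1 library except that without Cul3AKO3, and without Cul3AKO1 the median was 0.15.

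MYC is a transcription factor that drives ribosome production. Of the 8 genes of its network, 4 were called higher and 1 lower (median 0.29). Myc measured 2.53, 3.40, 3.02 and 4.82 FPKM in WT and 11.7, 11.7, 14.4 and 10.1 FPKM in Cul3AKO. Its groups did not overlap and it rose by 1.68 ± 0.17 (limma adjusted p = 0.000327). Mycl rose from 0.983 ± 0.357 to 4.93 ± 1.67 FPKM (1.86 ± 0.25, adjusted p = 0.00113), and Max, the partner of MYC, by 0.46. Mlx, the partner of ChREBP, was lower at -0.51 (adjusted p = 0.00137).

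Of 40 biogenesis factors, which build ribosomes, 2 were called higher and 8 lower, the latter a share near the 18.6% of all genes tested. Their median was -0.05, and 0.19 with libraries scaled to the same sum, where 11 were higher and 1 lower and the median of all genes was 0.21. With 1 library left out, 0 to 3 were higher, and the lower calls were 3 without WT1, 4 without Cul3AKO3 and 5 without WT2, Cul3AKO2 or Cul3AKO4. Pno1, needed for the last cuts of 18S rRNA, measured 20.97, 18.1, 18.3 and 16.4 FPKM in WT and 9.05, 10.1, 11.1 and 11.6 FPKM in Cul3AKO. The Pno1 groups were separate, at -0.79 ± 0.10 (limma adjusted p = 0.000867). Sbds, which frees the new large subunit for use, was at -0.46 (adjusted p = 0.00228) and Rrp12 at -0.41, while Wdr43 rose by 0.37. Of 11 genes of the RNA polymerase I machinery 1 was higher and 2 lower (median -0.07), namely Polr1c (0.30), Rrn3 (-0.39) and Polr1d (-0.63), of which Polr1c and Polr1d are shared with polymerase III. With libraries scaled to the same sum 5 were higher and 1 lower (median 0.18).

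Of 18 genes of RNA polymerase III and its factors, which make 5S rRNA and tRNA, 0 were higher and 4 lower (median -0.05), with 2 and 4 at an unadjusted p under 0.05 by limma and 0 and 4 by voom. The 22.2% lower is near the share of all genes tested, and 2 were lower without WT1, WT2, Cul3AKO1 or Cul3AKO2. Among the lower ones were Polr3g (-0.97, adjusted p = 0.00168), Gtf3c1 (-0.40) and Polr3k (-0.23). With libraries scaled to the same sum 7 of the 18 were higher and 1 lower, and Polr3k moved to 0.03. Of 6 dedicated chaperones of ribosomal proteins 0 were higher and 3 lower (median -0.35), with 0 and 4 at an unadjusted p under 0.05 by limma and 0 and 3 by voom: Bccip (-0.63), Heatr3 (-0.40) and Aamp (-0.63). Scaled to the same sum, 1 of the 6 was lower (median -0.11).

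Genes that act in the control of translation were called in both directions. Of 32 initiation factors 4 were higher and 10 lower (median -0.20, and 0.07 with libraries scaled to the same sum, where 7 were higher and 3 lower). The cap-binding protein Eif4e (-0.47), its scaffold Eif4g1 (-0.59), Eif2s1 (-0.53) and Eif2b5 (-0.52) were among the lower ones. Of 8 elongation factor genes 2 were higher and 2 lower, and 1 was higher without WT1, WT2, WT3, Cul3AKO1, Cul3AKO2 or Cul3AKO3. Eef2k, the kinase that inhibits eEF2, measured 4.38, 5.26, 4.67 and 4.46 FPKM in WT and 9.37, 8.95, 8.50 and 9.96 FPKM in Cul3AKO, with separate groups (0.90 ± 0.08, limma adjusted p = 0.000149). Of 18 genes of mTORC1 and TOP mRNA control 1 was higher and 5 lower (median -0.14, and 0.12 with libraries scaled to the same sum, where 5 were higher and 1 lower). Eif4ebp1, the inhibitor of Eif4e that mTORC1 switches off, measured 76.8, 77.6, 57.9 and 48.9 FPKM against 34.1, 23.8, 27.5 and 31.5 FPKM and was lower by -1.13 on the log2 scale (adjusted p = 0.002). Rragc (-0.50), Deptor (-0.43) and Rptor (-0.31) were also lower, and Larp1, which binds TOP motifs, was not called (-0.14, adjusted p = 0.174). Without Cul3AKO3 3 of the 18 were lower, and without WT1 2 of the initiation factors were higher.

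Of 3 genes that tie CUL3 to ribosome production, Cul3 itself among them, 0 were higher and 1 lower, Nolc1 at -0.23 (limma adjusted p = 0.0331). By voom 0 were called, and at an unadjusted p under 0.05 limma had 0 higher and 1 lower. The Nolc1 call was lost whichever library was left out except Cul3AKO1 (adjusted p up to 0.0863), and scaled to the same sum its value was 0.03. Of 14 genes of ribosome quality control 0 were higher and 3 lower (Rnf10 at -0.48, Abce1 at -0.39 and Otud3 at -0.38), with 1 and 3 at an unadjusted p under 0.05 by limma and 0 and 2 by voom. Their median was -0.14, and 0.11 scaled to the same sum, and 1 was lower without WT1, WT3, Cul3AKO1 or Cul3AKO3. Over all these lists 40 called genes are covered by the naming rule. Of these, 27 kept their call in every fit that left out 1 library and 14 kept it without WT1 and WT2. The 13 that lost it in at least 1 such fit included Aamp, Abce1, Eef2, Eif4b, Fau, Nolc1, Otud3, Polr1c, Polr3k, Rptor, Snhg12 and Wdr43, at an adjusted p of up to 0.121. Scaled to the same sum, all 13 that were higher kept their call and 9 of the 27 that were lower did.

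For comparison, of the 79 mitochondrial ribosomal protein genes 0 were called higher and 34 lower (median -0.30), with 0 and 44 at an unadjusted p under 0.05 by limma and 0 and 37 by voom. With libraries scaled to the same sum they were 6 higher and 13 lower (median -0.07). Of 37 proteasome subunit genes, another complex of fixed make-up, 1 was called higher and 28 lower (median -0.38, and -0.11 scaled to the same sum, where 2 were higher and 7 lower). Without WT1 the lower calls were 21 of the mitochondrial genes and 16 of the proteasome genes. The difference between these lists and the cytosolic ribosomal proteins was not tested.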

How the data were processed

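The authors deposited 1 table of FPKM values for 8 libraries, for which the submitters' processing notes name HISAT2 2.0.5, featureCounts and build mm10 but no annotation release. Exon lengths of GENCODE vM21 turned FPKM back into reads (97.9% of values between 0.5 and 200 reads lay within 0.02 of a whole number), giving 15.2 to 19.7 M reads (M, 1000000) in listed genes per library. Values were tested as log2(FPKM + 0.5), which understates changes of low genes, with limma 3.58.1 in R 4.3.3 (trend, robust, two-sided), all 8 libraries, no covariate, over the 14400 genes averaging 0.5 FPKM or more, and called at an adjusted p under 0.05. Counting whether a copy or its parent took a read can shift both, so copies found with blastn 2.17.0 were pooled as an alternative. Other steps used scipy 1.17.1, pandas 2.3.3 and numpy 2.4.6 in Python 3.11.15, and plots matplotlib 3.10.9. The fit was tested on simulated data. A few genes that the counts include are not reported here. Replicate numbers were not treated as pairs. The members and lists were chosen with earlier results of these data known. The rule for naming genes took Cul3, the 6 largest called rises and falls of members, the 5 most abundant members, each paralog pair, the 4 largest rises and falls relative to the members' mean, Rps6, Rpl5, Rpl11, Rps19, Rplp0 and Rpsa, and up to 4 called genes per list. Other members named, among them Rps14, Rps29, Rpl38, Rps10 and Larp1, were chosen after their values were seen. Copy pooling and the mRNA length trend were alternatives chosen after seeing the data.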

Additional observations from a re-analysis of the deposited data

Results flagged for a closer look

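A library was singled out where its distance to the nearest of its group took up more of the group's range than Dixon's 95% critical value for 4 samples. Over 170 groups of 4 this happened 10 times (5.88%), all 10 in Cul3AKO1, and chance flags about 1 in 20 groups. The groups come from the same libraries and are not independent, so this count is no test of chance. Its FPKM was 42.5 for Rpl18, 76.4 for Rpl35, 37.8 for Rpl36a, 59.0 for Rpl37, 131 for Rpl37a, 177 for Rpl38, 266 for Rpl41, 160.4 for Rps23, 57.8 for Rps28 and 61.8 for Rps3. The other 3 Cul3AKO libraries were nearest to it in relative terms for Rpl18 (34.1 to 35.2) and farthest for Rpl38 (54.0 to 70.3) and Rps28 (17.0 to 21.7). In the limma fit of all 8 libraries the adjusted p of these genes ran from 0.159 to 0.973, and what sets Cul3AKO1 apart was not tested.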

How the results depend on the processing

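Genes called higher over the whole table numbered 4217 with equal library sums, 4185 with equal reads in listed genes and 722 without WT1 and WT2, and 1089 to 1937 with 1 library left out. Called lower were 1180, 1266 and 1036, and 1858 to 2803. Members called higher were 48, 43 and 2 in those settings, 44 by quantile normalization, 42 with the trend on mRNA length removed and 12 to 21 with 1 library left out, and members lower 2 to 3. Relative to the members' mean, 3 were higher with a pseudocount of 0.1, with either length trend removed or with copies pooled, 0 without a filter, 2 by quantile normalization, voom or protein-coding genes only, 5 with array weights, 8 with copies pooled and without Cul3AKO1, and 0 to 7 with 1 library left out. Lower were 1 without WT1 and WT2 and 5 with copies pooled and without Cul3AKO1. Listed pathway genes higher were 56, 54 and 3 under the first 3 settings and 11 to 22 with 1 library left out, and lower 9, 13 and 12, and 25 to 36. Cul3 was called higher at 0.36 and 0.33 under the first 2 scalings. There Polr3k changed sign to 0.026 and 0.00344 and Nolc1 to 0.025 and 0.00308. The ratios of Rpl7l1, Rpl22l1 and Rps4l to their partners were -0.72, -0.87 and -0.58 without WT1 and WT2 (exact permutation test, adjusted p = 0.178). With so few libraries the exact test cannot reach a p under 0.05. With 1 library left out the ratios were -0.87 to -0.78, -1.10 to -0.83 and -0.66 to -0.51, where too few samples remain for a smaller p than 0.0571. The cause of the other shifts was not tested.

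Same-numbered libraries did not deviate together over the genes tested (correlations -0.06, -0.13, 0.17 and -0.32). These values cannot show whether such libraries share an origin or a processing step. With the replicate block, 1113 genes, 11 members and 10 pathway genes were higher and 2 members relative to the mean. Of the settings tried for named genes, 2574 values kept their status as called or not, 273 lost the call and 51 gained one. A further 5 moved with no test, and 4 that were called in the main fit changed sign. Values that were not called could change sign and still be among the 2574. Rpl11, for example, went from -0.06 to 0.21 with libraries scaled to the same sum. Depth is known only as reads recovered from FPKM, with at least 6 reads for each canonical member in each library.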
